A study of Mus musculus with 21 samples.

Results

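The data described here are the transcript levels of 10 genes of branched-chain amino acid breakdown in mouse pancreatic islets, measured by RNA sequencing. The genes were chosen by symbol (Bcat1, Bcat2, Bckdha, Bckdhb, Dbt, Bckdk, Mccc1, Mccc2, Acadsb and Hibch) and matched to the Ensembl identifiers of the deposited count tables, where they are 10 of 55536 genes. The 10 genes had at least 10 reads over the 21 samples, as did 27229 genes in all. Islets were isolated from 20-week-old male CBA mice, which had been placed on 1 of 3 diets at 10 weeks of age. RD mice received regular diet, HFD mice received high-fat diet, and HFD-O304 mice received high-fat diet containing 0.8 mg O304 per g of diet. O304 is a small molecule that activates AMPK, the kinase by which cells sense low energy. The time on diet before islet isolation was 9 to 10 weeks, since the sources used here give both values. Each group had 7 samples, and each sample was RNA from 150 islets drawn from a pool of islets from 5 mice, so that the spread between samples is a spread between pools. HFD replicate 3, whose title reads HF, was placed by its diet tag, which is HFD. HFD-O304 replicate 1 carries the HFD diet tag in its labels and was placed by its title. Without this sample, Bcat1, Bcat2 and Bckdk kept the calls against HFD given below, whereas the edgeR adjusted p of Bckdhb against HFD (0.0132) and of Mccc2 against RD (0.022) missed the threshold.

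Leucine, isoleucine and valine are the branched-chain amino acids. Their breakdown starts in every case with transfer of the amino group, which yields branched-chain keto acids, and continues with an irreversible oxidation of the keto acids by the mitochondrial branched-chain keto acid dehydrogenase (BCKDH) complex. BCKDH is switched off when a kinase phosphorylates it and switched on again by a phosphatase, and after this step the carbon skeletons follow separate routes for leucine, isoleucine and valine. In beta-cells leucine is a well-known stimulus of insulin secretion, and its breakdown feeds acetyl-CoA and ketone bodies.

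Read pairs assigned to genes ranged from 13809266 to 48922569 per sample, with a median of 38719302. RD replicates 1 and 2 and HFD replicate 7 stood apart from their groups: over 13216 well-expressed genes, these 3 libraries lay nearer to the mean of another group than to that of their own. All markers of beta-, alpha-, delta- and PP-cells searched for were detected in every sample, and the 10 beta-cell markers summed to at least 9431160 normalized counts (counts divided by a size factor of the library) in each. Markers of alpha-cells were lower in HFD islets (302334 to 615652 normalized counts over 5 genes) than in RD islets (790126 to 1008630) and HFD-O304 islets (823482 to 1109210), without overlap. The beta-cell sum was 11814300 to 13801000 in HFD islets, above the 9431160 to 11170800 of HFD-O304 islets. Such a sum follows its most abundant transcripts, and its genes did not all go the same way. The authors report Ins2 higher and Slc2a2 lower in HFD than in RD islets. They report Ins1 lower and Ucn3 higher in HFD-O304 than in HFD islets. Delta-cell markers had medians of 98053, 65562 and 124122 over 4 genes in RD, HFD and HFD-O304 islets, stromal markers 1960, 3230 and 1615 over 6 genes, and duct markers 8318, 10808 and 9690 over 6 genes. HFD replicate 7 had the lowest stromal sum (1712) and the highest alpha-cell and delta-cell sums of the HFD samples. Markers of dividing cells ranged from 535 to 3192 over 5 genes in HFD islets against 459 to 768 in RD islets and 222 to 558 in HFD-O304 islets. The sum of 10 acinar markers varied from 701 to 286780 between single samples. In RNA from whole islets, fewer cells of a type and less RNA per cell cannot be told apart. The part of these markers in the differences given below was not tested, with 1 exception. A fit with an acinar covariate is given where it changed a call of a gene named below. This covariate was the mean log2 level of the 10 acinar markers after scaling by library, not their sum.

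Per exon length, the transcripts of the 10 genes covered a wide range of levels in RD islets. Bckdha, which encodes the alpha subunit of the decarboxylase in the BCKDH complex, and Bckdk, which encodes the BCKDH kinase, were the most abundant, at 51.7 ± 5.42 and 45.5 ± 2.38 TPM (counts scaled by exon length and by the sum over all genes, mean ± SD, n = 7), and their ranges overlapped. Acadsb, which encodes the short/branched chain acyl-CoA dehydrogenase of isoleucine breakdown, followed at 29.2 ± 1.46 TPM. Bckdhb, the beta subunit of the same decarboxylase, had 22.6 ± 1.78 TPM.

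Mccc2 and Mccc1 encode the 2 subunits of methylcrotonyl-CoA carboxylase, the biotin-dependent enzyme of leucine breakdown, and had 19.8 ± 1.34 and 4.88 ± 0.312 TPM in RD islets. Their RD means were close in normalized counts, at 940 and 908, so that the gap in TPM comes from exon lengths of 2802 and 10952 bases. Bcat2, the mitochondrial branched-chain aminotransferase, had 15.5 ± 2.72 TPM, and Dbt, the transacylase core of the BCKDH complex, 12.04 ± 0.718 TPM. Hibch, the hydrolase that frees 3-hydroxyisobutyrate from its coenzyme A ester in valine breakdown, had 5.94 ± 0.402 TPM, and Bcat1, the cytosolic aminotransferase, only 0.392 ± 0.208 TPM. Neighbours in the order from Bckdhb through Mccc2 and Bcat2 to Dbt overlapped in their ranges, whereas Acadsb, Hibch, Mccc1 and Bcat1 were separate from their neighbours in RD islets, as the plot of TPM by gene shows. The order depends on the length used, that of all annotated exons of a gene joined, which ran from 1805 bases (Bckdhb) to 10952 (Mccc1).

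**Figure D1:**
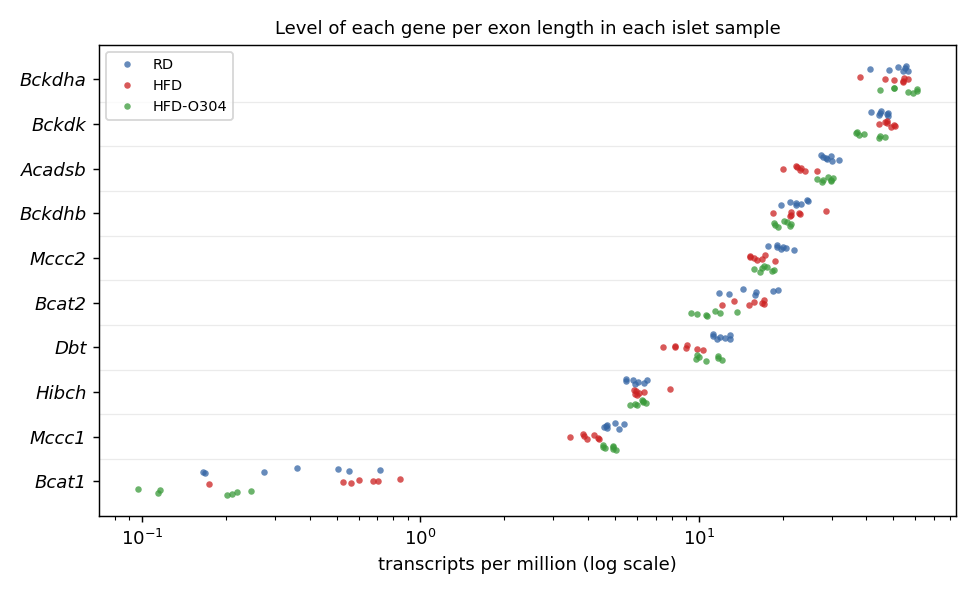
Level in TPM (horizontal axis, log scale) of the 10 genes in each of the 21 islet samples, 1 point per sample, in the order of their RD means. Bckdha and Bckdk lie between 36.6 and 60.6 TPM, and Bcat1 lies below 1 TPM in every sample.

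Of the 2 aminotransferases, the RD islets thus held mostly Bcat2 transcript. Bcat1 was also the gene that varied most among samples of the same group: its SD was 55.6% of the mean in RD islets, 37.6% in HFD islets and 36.4% in HFD-O304 islets, while the same measure was 4.33% for Acadsb and 18.9% for Bcat2 in RD islets. With 25.3 to 116.3 normalized counts in RD islets, Bcat1 was also measured by the fewest reads. Bckdk varied least in HFD islets, with an SD of 2.74% of the mean.

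**Figure D2:**
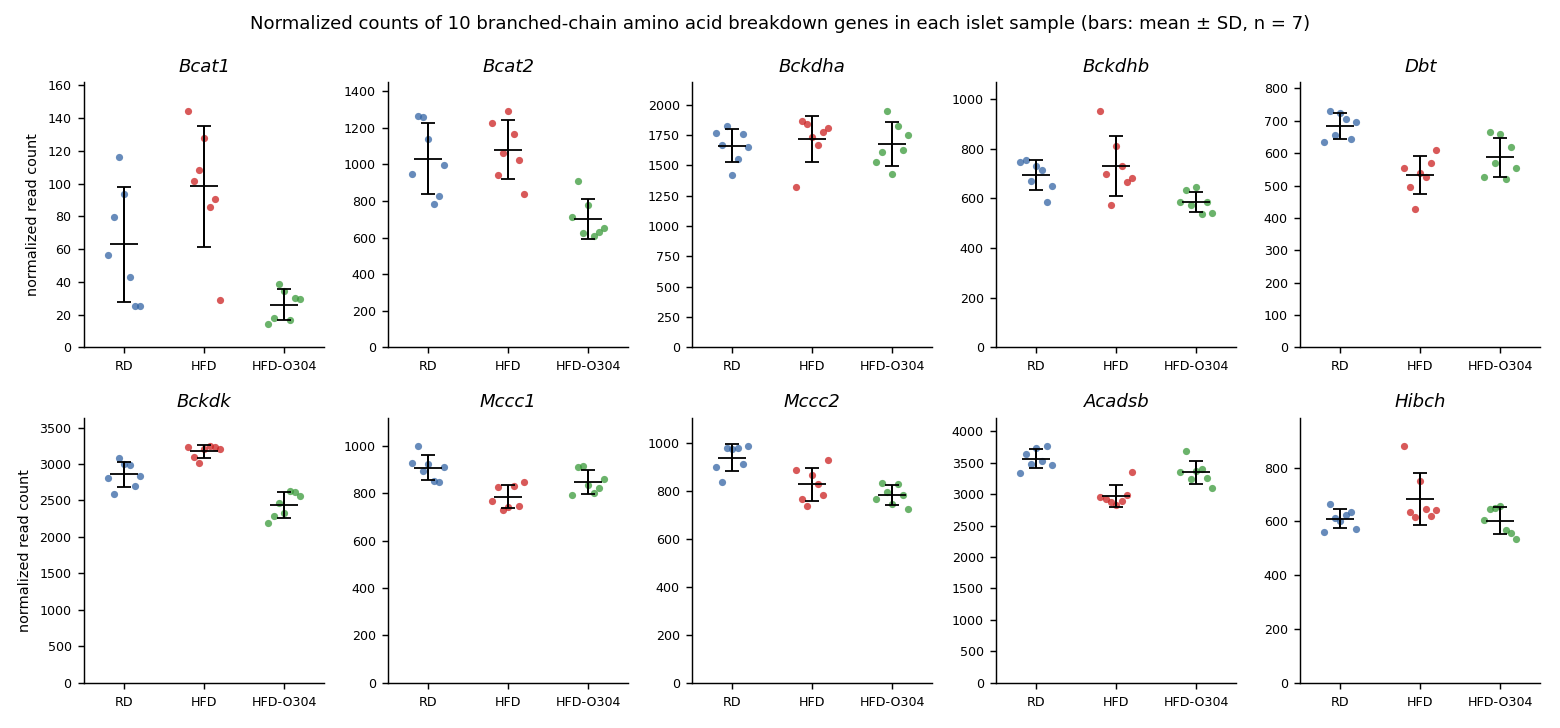
Normalized read counts (vertical axes, starting at 0) of the 10 genes in RD, HFD and HFD-O304 islets, with 1 point per sample in the order of replicate numbers from left to right and bars for mean ± SD (n = 7). Dbt and Acadsb are lower on HFD than on RD, and Bckdk is lower in every HFD-O304 sample than in any HFD sample.

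The comparison of HFD with RD islets shows how these transcripts differed after weeks of overnutrition. Transcripts of Dbt and Acadsb fell in HFD islets, by 22.5% and 16.8%. None of the other 8 genes passed the threshold, a Benjamini-Hochberg adjusted p under 0.01 in edgeR's quasi-likelihood test, with TMM scaling of the libraries, over all 27229 genes. Thus 2 of 10 genes passed, both lower, where 3.54% of all genes passed in either direction and 1.54% were lower. Here and below, such shares are over these 27229 genes, of which only 13216 averaged at least 50 normalized counts. The share among genes with as many reads as the 10 was not computed.

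Dbt (chr3:116513070-116549981, plus strand, GRCm38) had 635 to 731 normalized counts in RD islets, with a median of 695, and 429 to 610 in HFD islets, with a median of 539. The 2 groups did not overlap, which held for 1 of the 10 genes and for 1.35% of all genes. The log2 fold change was -0.37 (SE 0.07, edgeR adjusted p = 0.00161, n = 7 per group).

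Acadsb (chr7:131410601-131448944, plus strand) had 3335 to 3762 normalized counts in RD islets, with a median of 3526, and 2831 to 3353 in HFD islets, with a median of 2923. Only HFD replicate 7, at 3353, reached the RD range, and the 6 other HFD samples lay at 2831 to 2989. This was a log2 fold change of -0.27 (SE 0.05, edgeR adjusted p = 0.00104).

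Both calls were kept without the 3 libraries that stood apart, with log2 fold changes of -0.39 for Dbt (edgeR adjusted p = 0.00158) and -0.30 for Acadsb (0.000375). Within replicates 1 to 4 and 5 to 7, whose library numbers form 2 separate sets, the log2 fold change of Dbt was -0.45 and -0.26 and that of Acadsb -0.30 and -0.22, and with these fewer samples neither gene passed the threshold in either set.

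The carboxylase subunits of leucine breakdown lay just outside the threshold. Mccc1 had 846 to 999 normalized counts in RD and 731 to 849 in HFD islets, a log2 fold change of -0.21 (SE 0.05, edgeR adjusted p = 0.0141), and Mccc2 had 839 to 988 and 736 to 928, a log2 fold change of -0.19 (SE 0.06, adjusted p = 0.0392). With all 21 samples kept, Mccc1 passed, as lower, with DESeq2 (adjusted p = 0.00239), with library totals in place of TMM (0.00412), with edgeR's filterByExpr as the read filter (0.00796) and with the library set (replicates 1 to 4 or 5 to 7) as a covariate (0.0093). It also passed without HFD replicate 7 (0.00694). Mccc2 passed under 1 of 13 alternatives, without the 3 libraries that stood apart (0.00736).

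The kinase gene Bckdk had 2589 to 3081 normalized counts in RD and 3012 to 3245 in HFD islets, and its log2 fold change of 0.15 (SE 0.05) had an edgeR adjusted p of 0.0821. For Bcat1 the groups overlapped widely, at 25.3 to 116.3 and 28.7 to 144 normalized counts, and the log2 fold change was 0.62 (SE 0.31, adjusted p = 0.248). Bcat2 (0.06), Bckdha (0.04), Bckdhb (0.06) and Hibch (0.16) had log2 fold changes with adjusted p values of 0.839, 0.830, 0.737 and 0.214. These p values do not show that the levels were equal, since the SE of Bcat2 alone was 0.11 and that of Bckdhb 0.08.

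Taking the 10 genes as a list, 6 had a point estimate above 0 and 4 below it, and their median log2 fold change was 0.05 against -0.0044 over all genes tested. The genes thus had no common direction between HFD and RD islets.

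**Figure D3:**
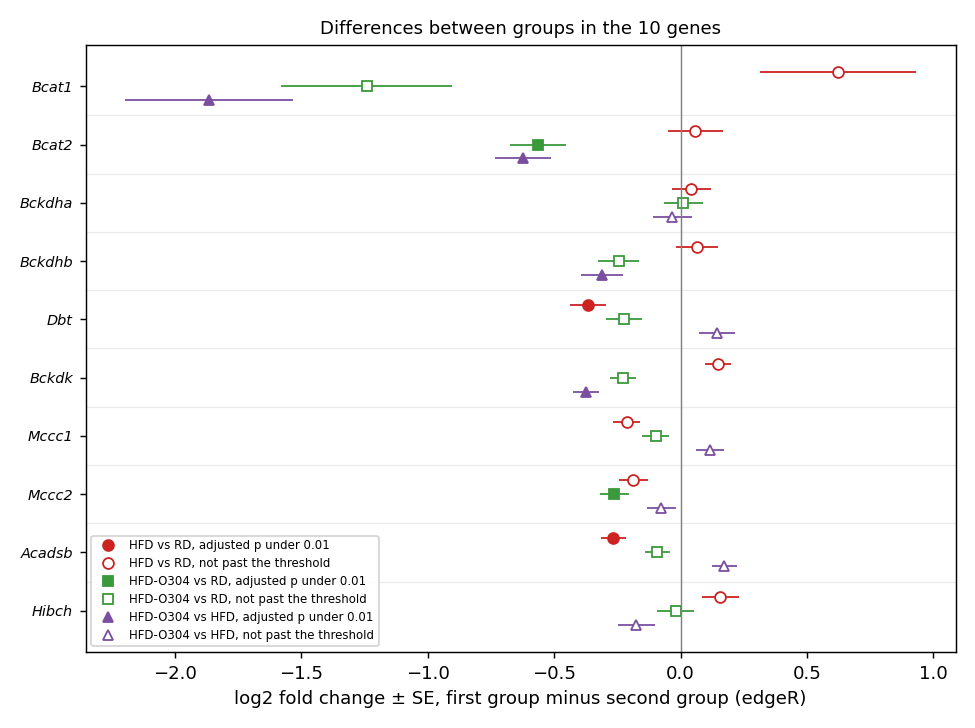
Log2 fold changes ± SE (horizontal axis, edgeR) of the 10 genes in the 3 comparisons, with filled symbols for an adjusted p under 0.01 and open symbols for the rest. With TMM scaling, filled symbols lie left of 0 in each comparison, at Dbt and Acadsb for HFD vs RD, Bcat2 and Mccc2 for HFD-O304 vs RD, and Bcat1, Bcat2, Bckdhb and Bckdk for HFD-O304 vs HFD.

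The comparison of HFD-O304 with HFD islets shows how the same diet with O304 differed from the diet alone. Transcripts of both aminotransferases, of the BCKDH kinase and of a BCKDH subunit were lower. Bcat1 fell by 72.5%, Bcat2 fell by 35.0%, Bckdk fell by 22.8% and Bckdhb fell by 19.3%. The other 6 genes did not pass the threshold. These 4 of 10 genes, all lower in this fit, stand beside 11.9% of all genes that passed in either direction and 6.79% that were lower in this comparison, which had more calls over all genes than the others. The marker sums of beta-cells (higher in HFD as a sum, not in each gene) and alpha-cells (lower in HFD) also did not overlap between these groups. The part of these markers in the calls was not tested.

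Bcat1 (chr6:144993835-145076184, minus strand) had 28.7 to 144 normalized counts in HFD islets, with a median of 101.4, and 14.4 to 38.8 in HFD-O304 islets, with a median of 29.5. HFD replicate 7, at 28.7, was the only HFD sample within the HFD-O304 range, and the 6 others lay at 85.9 to 144. On the log2 scale the difference was -1.86 (SE 0.33, edgeR adjusted p = 0.000154), and it was -2.13 in replicates 1 to 4 (adjusted p = 6.3e-05) and -1.40 in replicates 5 to 7 (0.0232).

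Bcat2 (chr7:45570153-45589711, plus strand) had 837 to 1292 normalized counts in HFD islets, with a median of 1063, and 609 to 906 in HFD-O304 islets, with a median of 651. The ranges touched only through HFD replicate 7 at 837 and HFD-O304 replicate 2 at 906. The log2 fold change was -0.62 (SE 0.11, edgeR adjusted p = 0.000145), at -0.60 in replicates 1 to 4 and -0.67 in replicates 5 to 7, past the threshold in both sets.

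Bckdk (chr7:127904082-127910221, plus strand) had 3012 to 3245 normalized counts in HFD islets, with a median of 3205, and 2191 to 2635 in HFD-O304 islets, with a median of 2460. It was the only 1 of the 10 genes without overlap between these groups, against 6.17% of all genes. Its log2 fold change was -0.37 (SE 0.05, edgeR adjusted p = 6.22e-06), and it was -0.44 and -0.30 in the 2 library sets, past the threshold in both.

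Bckdhb (chr9:83925145-84124240, plus strand) had 571 to 952 normalized counts in HFD islets, with a median of 696, and 538 to 647 in HFD-O304 islets, with a median of 584. The ranges overlapped in HFD replicate 3 at 571, and HFD replicate 1 was the highest at 952. The log2 fold change was -0.31 (SE 0.08, edgeR adjusted p = 0.00767), and this call was lost when any of 11 of the 21 samples was left out in turn, among them HFD replicate 1, without which it was -0.24 (adjusted p = 0.0271).

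Among the genes that did not pass, Acadsb had 3102 to 3691 normalized counts in HFD-O304 islets, and its log2 fold change was 0.17 (SE 0.05, edgeR adjusted p = 0.0123). It passed, as higher in HFD-O304 islets, under 5 of 13 alternatives: DESeq2 (adjusted p = 0.00203), filterByExpr (0.0078), the library set as a covariate (0.00896), library totals in place of TMM (0.000362) and the fit without the 3 libraries that stood apart (0.00187). It also passed without HFD replicate 7 alone (0.00236). Mccc1, at 0.11, passed with library totals too, at 0.21 (adjusted p = 0.00616), and Bckdhb, at -0.21 (0.0441), then did not, a scaling that moved the median of all genes by 0.1. That all calls were lower thus held in the fit used here but not under these 5 alternatives, with 4 of the 10 genes lower and 1 higher in each of them except library totals, which gave 3 lower and 2 higher.

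Dbt (0.14), Mccc2 (-0.08), Bckdha (-0.03) and Hibch (-0.18) had log2 fold changes with edgeR adjusted p values of 0.182, 0.424, 0.845 and 0.1. Over the 10 genes the median log2 fold change was -0.13 against 0.03 over all genes, with 7 estimates below 0 and 3 above it. Bckdha and Dbt, the other BCKDH subunit genes, were thus not called in this comparison, whereas Bckdhb and the kinase gene were.

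The sequences before the starts of the 4 genes called lower in HFD-O304 than in HFD islets are shown, as RefSeq places the starts on GRCm38.p6. The shared direction of the 4 follows from this choice, and whether they vary together was not tested. Entries were found for 9 of the 10 genes, all but Dbt. The sequences cover the 250 bases before the start in the direction of transcription: chr6:145076158-145076407 on the minus strand for Bcat1, and on the plus strand chr7:45569903-45570152 for Bcat2, chr9:83924887-83925136 for Bckdhb and chr7:127903823-127904072 for Bckdk. Capitals mark GC-boxes (GGGCGG on either strand).
Bcat1: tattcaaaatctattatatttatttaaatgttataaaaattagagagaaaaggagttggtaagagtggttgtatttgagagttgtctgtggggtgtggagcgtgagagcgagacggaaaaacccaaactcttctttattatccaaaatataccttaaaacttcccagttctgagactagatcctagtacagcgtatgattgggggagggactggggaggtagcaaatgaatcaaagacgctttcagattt
Bcat2: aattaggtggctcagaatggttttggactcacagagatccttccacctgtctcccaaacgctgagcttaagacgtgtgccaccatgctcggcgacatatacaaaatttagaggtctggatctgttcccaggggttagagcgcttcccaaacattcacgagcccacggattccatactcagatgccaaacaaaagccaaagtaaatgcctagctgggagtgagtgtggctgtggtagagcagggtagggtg
Bckdhb: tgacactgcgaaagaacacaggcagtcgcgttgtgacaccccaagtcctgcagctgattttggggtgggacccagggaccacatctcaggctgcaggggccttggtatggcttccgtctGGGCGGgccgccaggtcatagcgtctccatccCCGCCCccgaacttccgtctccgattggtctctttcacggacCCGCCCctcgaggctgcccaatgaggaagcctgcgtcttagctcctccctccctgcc
Bckdk: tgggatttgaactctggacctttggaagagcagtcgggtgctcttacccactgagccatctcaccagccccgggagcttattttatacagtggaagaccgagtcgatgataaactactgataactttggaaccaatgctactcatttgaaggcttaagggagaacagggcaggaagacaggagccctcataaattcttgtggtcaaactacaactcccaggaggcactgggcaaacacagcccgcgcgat

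Bckdhb held 3 GC-boxes in these 250 bases, and Bcat1, Bcat2 and Bckdk held none. Over all 9 genes found, 4 held a GC-box (Acadsb, Bckdhb, Hibch and Mccc1), beside 32.7% of 32851 stretches of the same length before RefSeq starts. An E-box (CACGTG) was found before Mccc2 only, beside 6.02% of all. The letters GCGCANGCG (the core of NRF1 sites, 5.16% of all), TCAAGGTCA (an estrogen-related receptor element, 0.387%) and TGACGTCA (a cyclic AMP response element, 1.55%) were in none of the 9, on either strand. These are matches of letters in this window and say nothing of the factors. The base composition differed, with 37.6% G and C before Bcat1 and 68.0% before Hibch, against a median of 52.4% over all.

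The comparison of HFD-O304 with RD islets asks which transcripts differed from regular diet when O304 was given with the fat. Bcat2 fell by 32.4% and Mccc2 by 16.6%, and the other 8 genes did not pass the threshold. These 2 of 10 genes, both lower, compare with 1.31% of all genes in either direction and 0.903% lower.

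Bcat2 had 785 to 1265 normalized counts in RD islets, with a median of 995, against the 609 to 906 of HFD-O304 islets given above. RD replicates 5 and 6, at 785 and 828, lay within the HFD-O304 range. The log2 fold change was -0.56 (SE 0.11, edgeR adjusted p = 0.0031), and it was -0.63 and -0.46 in the 2 library sets (adjusted p = 0.0173 and 0.0322).

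The call of Bcat2 against RD was lost, at adjusted p values of 0.0104 to 0.0162, without RD replicate 2, 3 or 4 or without HFD-O304 replicate 5, 6 or 7, and it was lost without the 3 libraries that stood apart (-0.51, edgeR adjusted p = 0.0119).

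Mccc2 (chr13:99948530-100015639, minus strand) had 839 to 988 normalized counts in RD islets, with a median of 976, and 727 to 836 in HFD-O304 islets, with a median of 782. The groups did not overlap, as for 1 of the 10 genes and 1.56% of all genes. On the log2 scale the difference was -0.26 (SE 0.06, edgeR adjusted p = 0.00762), and the call held without 7 of the 21 samples, left out in turn, and was lost without each of the other 14, at adjusted p values up to 0.035. With the acinar covariate its adjusted p was 0.0142, at an unchanged log2 fold change of -0.26.

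Bckdk lay near the threshold, with 2191 to 2635 normalized counts in HFD-O304 against 2589 to 3081 in RD islets and a log2 fold change of -0.23 (SE 0.05, edgeR adjusted p = 0.0123). It passed, as lower, with DESeq2 (0.000416), filterByExpr (0.00657), the replicate number as a block (0.00872) and the library set as a covariate (0.00465). Bcat1 had a log2 fold change of -1.24 (SE 0.34, adjusted p = 0.0402), and the estimate differed between the library sets, at -1.66 in replicates 1 to 4 (adjusted p = 0.00763) and -0.31 in replicates 5 to 7. RD replicates 1 to 4 had 56.6 to 116.3 normalized counts of Bcat1, above the 25.3 to 43.3 of RD replicates 5 to 7, without overlap. The difference between the sets in this comparison was 1.35 on the log2 scale, with an edgeR interaction p of 0.0171 before and 0.854 after adjustment over all genes.

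The remaining 6 genes gave values between -0.24 (Bckdhb, edgeR adjusted p = 0.119) and 0.01 (Bckdha, 0.974). Dbt, at -0.22 (0.0967), Mccc1, at -0.10 (0.433), Acadsb, at -0.09 (0.412), and Hibch, at -0.02 (0.954), lay between them. The median over the 10 genes was -0.22 against 0.0078 over all genes, and 9 of the 10 estimates were below 0. The 3 comparisons share their samples in pairs, so that the values of a gene in different comparisons are not independent of each other.

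Ratios between 2 transcripts in the same sample need no scaling of the library and were compared by exact two-sided permutation tests over 3432 splits of 7 against 7, with adjustment over 15 tests and a threshold of 0.05. The balance of the kinase transcript to that of the BCKDH phosphatase changed in both comparisons with HFD islets. Ppm1k encodes this phosphatase, and it was not among the 10 genes. The log2 ratio of Bckdk to Ppm1k counts was 1.88 to 2.23 in RD islets, 2.26 to 2.77 in HFD islets and 1.62 to 2.09 in HFD-O304 islets.

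HFD islets did not overlap with either other group in this ratio. The mean rose from 2.03 ± 0.122 in RD to 2.48 ± 0.189 in HFD islets (SD, n = 7), a difference of 0.46, and was 1.88 ± 0.17 in HFD-O304 islets, 0.61 below HFD. Both differences had an exact permutation p of 0.000583, the smallest that 7 against 7 samples can give, and an adjusted p of 0.00291. The difference of -0.15 between HFD-O304 and RD islets had an adjusted exact permutation p of 0.134.

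Relative to Bckdha, the subunit gene of its target, Bckdk was lower in HFD-O304 islets. The log2 ratio was 0.335 to 0.708 there, 0.709 to 1.29 in HFD islets and 0.616 to 1.08 in RD islets. The difference from HFD was -0.35 (adjusted exact permutation p = 0.00291, no overlap, though the nearest samples were 0.708 and 0.709), and that from RD was -0.24 (adjusted p = 0.0233).

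The 2 aminotransferase transcripts did not move in proportion. The log2 ratio of Bcat1 to Bcat2 was -3.57 ± 0.603 in HFD and -4.79 ± 0.625 in HFD-O304 islets, a difference of -1.22 (adjusted exact permutation p = 0.0175). Against RD islets, at -4.21 ± 0.684, neither group passed the threshold, with adjusted p values of 0.139 for HFD and 0.165 for HFD-O304. Without HFD replicate 7 the difference of HFD from RD was 0.86 (adjusted exact permutation p = 0.0204).

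Mccc1 relative to Mccc2 was higher by 0.19 in HFD-O304 than in HFD islets (adjusted exact permutation p = 0.0233), and the difference of 0.16 from RD did not pass (0.0849), but did without RD replicate 2, at 0.21 (0.00874), and without HFD-O304 replicate 5, at 0.19 (0.04995). Bckdha relative to Bckdhb did not pass in any comparison, with differences of -0.02, 0.25 and 0.27 for HFD against RD, HFD-O304 against RD and HFD-O304 against HFD and adjusted p values of 0.921, 0.117 and 0.175. Without HFD-O304 replicate 4 the second of these passed, at 0.31 (adjusted p = 0.0425).

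**Figure D4:**
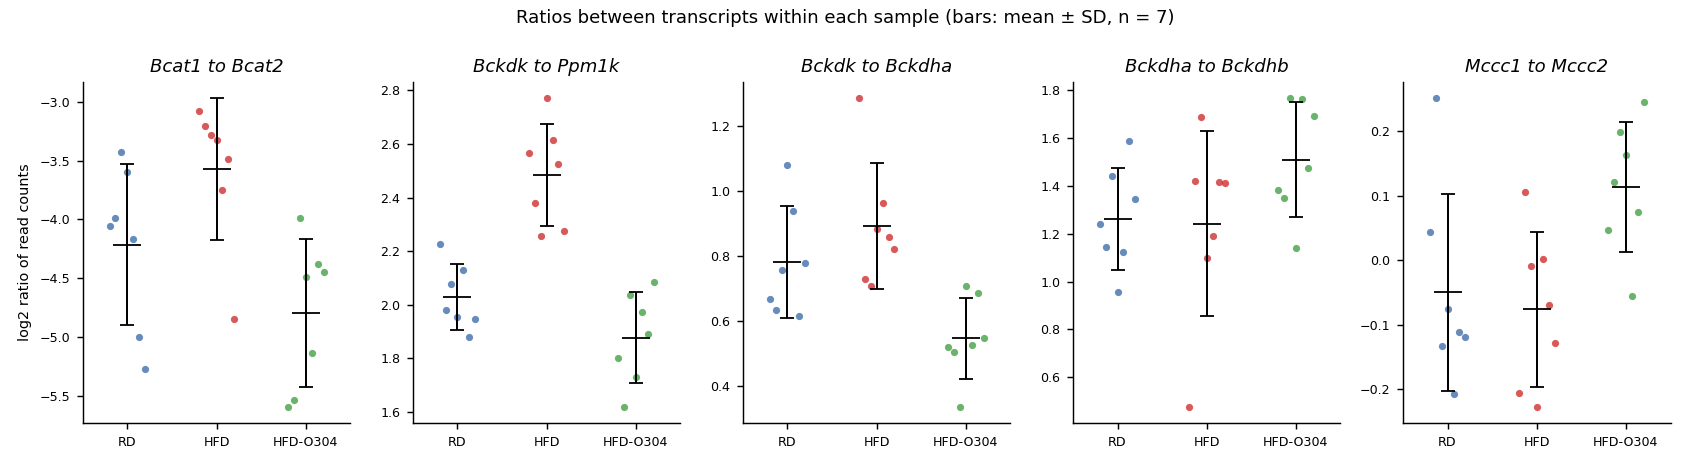
Log2 ratios of read counts (vertical axes, each on its own scale and not starting at 0) for 5 pairs of transcripts in RD, HFD and HFD-O304 islets, 1 point per sample in the order of replicate numbers, with bars for mean ± SD (n = 7). The 7 HFD samples lie at 2.26 to 2.77 for Bckdk to Ppm1k, above all samples of the other groups.

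The other genes of the pathway, 27 in number, cover transport of the amino acids, the remaining subunit and the phosphatase of BCKDH, the later steps of the 3 routes, the use of propionyl-CoA, biotin handling and the transcription factor Klf15. In HFD vs RD islets 4 of 27 passed the threshold, all lower, where 3.54% of all genes passed. They were Ivd, the isovaleryl-CoA dehydrogenase of leucine breakdown, at -0.41 (SE 0.07, edgeR adjusted p = 0.000473), Ppm1k at -0.30 (0.00945), Aldh6a1, the methylmalonate semialdehyde dehydrogenase of valine breakdown, at -0.27 (0.00874), and Slc7a8, a neutral amino acid transporter, at -0.25 (0.00752).

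Ivd had 2762 to 3466 normalized counts in RD and 2104 to 2947 in HFD islets, and it kept its call without any of the 21 samples left out in turn. Ppm1k, at 600 to 773 in RD and 468 to 661 in HFD islets, kept it in 6 of these 21 fits, Aldh6a1 in 5 and Slc7a8 in 8. With the acinar covariate the adjusted p of Ppm1k was 0.0122. In each of the 4 genes the groups overlapped, as in all 27, where 1.35% of all genes did not. The 23 genes that did not pass included Hibadh, the dehydrogenase after Hibch in valine breakdown, at -0.21 (edgeR adjusted p = 0.013).

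Between HFD-O304 and HFD islets 3 of 27 passed, where 11.9% of all genes passed. Auh, the methylglutaconyl-CoA hydratase of leucine breakdown, was lower at -0.33 (SE 0.05, edgeR adjusted p = 3.43e-05), with 1338 to 1611 normalized counts in HFD-O304 and 1798 to 2024 in HFD islets. Hlcs, the enzyme that attaches biotin to carboxylases such as that of Mccc1, was lower at -0.26 (SE 0.05, adjusted p = 0.000351), with 1160 to 1428 against 1463 to 1617. Neither gene overlapped between the groups, nor did Slc6a15, given next, which makes 3 of 27 beside 6.17% of all genes.

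The remaining call was the amino acid transporter gene Slc6a15, higher in HFD-O304 islets, on 0 to 2 read pairs per HFD sample and 2 to 18 per HFD-O304 sample. Ppm1k and Ivd, which were called lower in HFD islets against RD, had log2 fold changes of 0.22 and 0.25 with O304 against HFD, where their edgeR adjusted p values of 0.0321 and 0.0109 did not pass. Ivd passed, as higher with O304, under 9 of 13 alternatives, among them DESeq2 (adjusted p = 0.00455), filterByExpr (0.0088), the replicate block (0.00185), the library set as a covariate (0.00103) and the acinar covariate (0.0097). Ppm1k passed, as higher, with library totals (0.00406) and without the 3 libraries that stood apart (0.00521). Without TMM, on library totals, 9 of the 27 genes passed in this comparison.

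In HFD-O304 vs RD islets 4 of 27 passed, all lower, where 1.31% of all genes passed. These 4 were also the only ones of the 27 without overlap between the groups, beside 1.56% of all genes. Auh was at -0.33 (SE 0.05, edgeR adjusted p = 0.000354), and Mmut, the methylmalonyl-CoA mutase that ends the propionyl-CoA route, was at -0.33 (SE 0.05, 0.000427), with 2155 to 2552 normalized counts against 2749 to 3373 in RD islets. Aldh6a1 was at -0.37 (SE 0.07, 0.00121), with 1248 to 1628 against 1658 to 2126.

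Klf15, known as an inducer of amino acid breakdown genes in muscle and liver, was at -0.70 (SE 0.15, edgeR adjusted p = 0.00752), with 210 to 313 normalized counts against 317 to 514, and kept its call in 9 of 21 fits that each left out a sample. The median log2 fold changes of the 27 genes were -0.08 in HFD vs RD, 0.01 in HFD-O304 vs HFD and -0.07 in HFD-O304 vs RD, and those of all genes -0.0044, 0.03 and 0.0078.

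**Figure D5:**
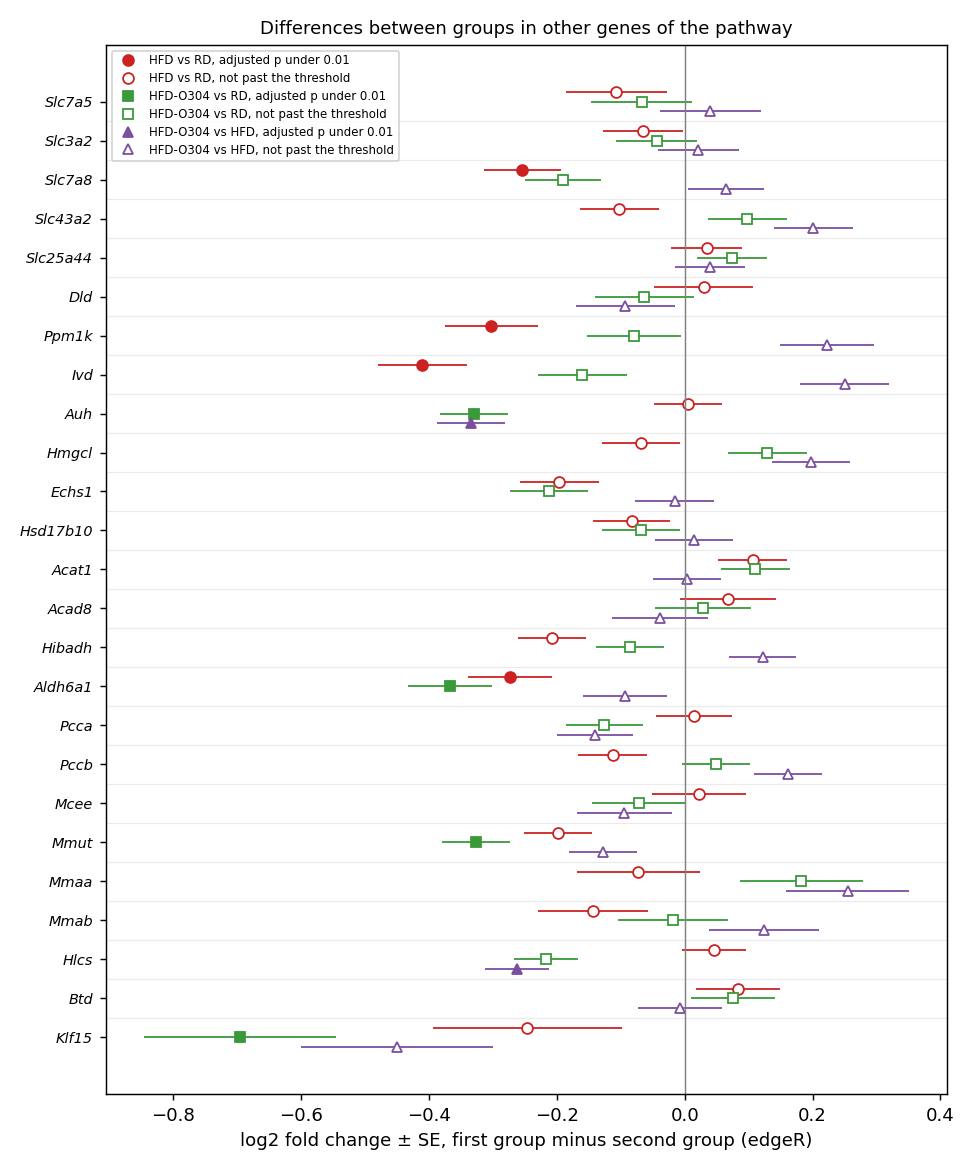
Log2 fold changes ± SE (horizontal axis, edgeR) of the other genes of the pathway in the 3 comparisons, ordered from transport to the later steps, with filled symbols for an adjusted p under 0.01. Slc6a15 and Slc43a1, with at most 18 read pairs in a sample, are not drawn. Ivd has the lowest value in HFD vs RD, and Klf15 the lowest in HFD-O304 vs RD.

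Step by step, the genes that fell in HFD islets (Dbt, Ivd, Acadsb, Aldh6a1, Ppm1k and Slc7a8) lay at the core and phosphatase of BCKDH, at the acyl-CoA dehydrogenases of the leucine and isoleucine routes, at the end of the valine route and in transport. The genes that fell with O304 against HFD (Bcat1, Bcat2, Bckdhb, Bckdk, Auh and Hlcs) lay at transamination, at BCKDH and its kinase, in the later leucine route and in biotin handling. Auh and Hlcs were among only 3 calls in 27 other genes, beside 11.9% of all genes. When single samples were left out, Bckdhb kept its call in 10 of 21 fits. Of the first set, Ppm1k, Aldh6a1 and Slc7a8 kept theirs in 6, 5 and 8. Whether the steps differ from each other was not tested. Acadsb, Ivd and Ppm1k, of the first set, were called higher with O304 against HFD under the alternatives given above. Both sets rest on the same 7 HFD samples, which enter the 2 comparisons with opposite sign, so that nothing is read here from their overlap.

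Bcat1 had the largest change of any call among the 10 genes. Over the 21 samples and 13216 genes with at least 50 normalized counts on average, the 5 genes whose log2 normalized counts were most like those of Bcat1 were Derl3 (Pearson r = 0.939), Os9 (0.935), Mgp (0.934), Gpr108 (0.930) and Plat (0.930). The samples share the 3 diets and their library sets. With the group means taken out, r was 0.848 to 0.908, a description only, since the 5 genes were chosen as the highest over these same samples and the deviations still hold the difference between library sets. Derl3, for example, had means of 1471, 2852 and 764 normalized counts in RD, HFD and HFD-O304 islets, in the same order as Bcat1 at 62.9, 98.3 and 26.0.

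Overlapping transcription touched few of the read pairs of these genes. Bckdk and Mccc2 overlap with no other annotated gene. Bckdha shares exons with B3gnt8 on the opposite strand, which had 710 read pairs over the 21 samples against 36889 of Bckdha, and Mccc1 with Gm15952, which had 962 against 18421. Counts of the other strand do not enter those used here.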

How the data were processed

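The authors aligned paired-end reads with STAR to GRCm38 with Ensembl 96 annotation, checked them with FastQC, and deposited raw counts of read pairs by gene, a table for each of 21 samples. Pairs with several matching places, or on several genes, are not counted in them. The strand-specific count used here (the fourth column, counts per gene) held 28.8 to 36.3 times the reads of the opposite strand. Which column the authors used is not stated in the methods. Lines that name no gene held 18.5 to 24.9% of read pairs and were left out.

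Samples were grouped by their labels. Genes with at least 10 reads over all samples were tested with edgeR 4.0.16 in R 4.3.3 by a quasi-likelihood fit with TMM scaling that held the 3 groups and no covariate. The threshold was 0.01 on p-values adjusted by Benjamini-Hochberg, and the script was tested on simulated data. Normalized counts are counts divided by DESeq2 (1.42.0) size factors, and TPM was computed from the counts and the exon length of GENCODE vM21. Ratios used a pseudocount of 0.5 and exact permutation tests in Python 3.11.15. The precision is set by 7 pools per group and, for Bcat1, by few reads. The members and gene lists were chosen with earlier results of these data known. All 10 genes are named in each comparison, of the 27 other pathway genes those past the threshold in at least 1 comparison (Hibadh, named for its value near the threshold, was added after its values were seen), and the 5 genes most like the member with the largest change among calls. Alternatives changed the tool, scaling, read filter, strand, threshold, groups fitted, library set or covariates, added a replicate block, or left out each sample in turn. The fit without the 3 libraries that stood apart was added after the data were seen. ChIP-seq was not analysed here.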

Additional observations from a re-analysis of the deposited data

Results flagged for a closer look

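In 3 cases a single sample lay far from the other 6 of its group, by a gap to the nearest sample that exceeded Dixon's critical value. Bckdha had 1322 normalized counts in HFD replicate 1, where the other HFD samples had 1665 to 1865. Acadsb had 3353 normalized counts in HFD replicate 7, where the others had 2831 to 2989, and the log2 ratio of Bcat1 to Bcat2 was -4.85 in the same library, where the others had -3.75 to -3.08. HFD replicate 7 is also the HFD library that lay nearer to the RD mean over the 13216 well-expressed genes, and its markers of dividing cells, at 535 normalized counts, were the lowest of the HFD group. In all, 45 groups of 7 values were examined, and chance alone flags about 1 in 20.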

How the results depend on the processing

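The limits are those of 7 pools per group and of the chosen scaling. Bckdk and Bcat2 in HFD-O304 vs HFD kept direction and call under each of 13 alternatives and without each of 21 samples, and Dbt and Acadsb in HFD vs RD under 11 of 13 and without each sample. Mccc2 in HFD-O304 vs RD kept its call under 6 of 13. Where a value below moved, the cause was not tested, beyond the smaller number of samples in the fits of replicates 1 to 4 and 5 to 7.

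Of the 10 genes, 2 passed in HFD vs RD, against 0 in replicates 1 to 4, 0 in replicates 5 to 7 and 4 at an adjusted p under 0.05. In HFD-O304 vs RD 2 passed, against 1 each with library totals, no filter, unstranded counts, replicates 1 to 4, the acinar covariate or without the 3 libraries that stood apart, 0 in replicates 5 to 7, 4 at an adjusted p under 0.05, and 0 to 2 when single samples were left out. In HFD-O304 vs HFD 4 passed, against 2 in replicates 5 to 7. Of the 27 other genes, 4 passed in HFD vs RD, against 2 each with no filter, unstranded counts or the 2 groups only, 1 in replicates 1 to 4, 0 in replicates 5 to 7, 7 at an adjusted p under 0.05, and 1 to 6 with single samples left out. In HFD-O304 vs RD 4 passed, against 2 with library totals, 0 in replicates 1 to 4 and 1 in replicates 5 to 7. In HFD-O304 vs HFD 3 passed, against 6 with DESeq2, 9 with library totals, 6 without the 3 libraries that stood apart, 9 at an adjusted p under 0.05, and 3 to 5 with single samples left out.

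Over all genes in HFD vs RD, edgeR called 544 higher and 419 lower with TMM, and 441 and 513 with library totals. In HFD-O304 vs RD the split went from 110 and 246 to 158 and 167, and in HFD-O304 vs HFD from 1382 and 1848 to 2669 and 1299. DESeq2 called 1758, 727 and 4045 genes in these 3 comparisons where edgeR called 963, 356 and 3230.

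Signs turned for the following values, none of which had passed. Most lay near 0, but Klf15 in HFD vs RD (-0.25), Dbt in HFD-O304 vs HFD (0.14) and the ratio of Bcat1 to Bcat2 in HFD-O304 vs RD (-0.58) did not. With library totals the log2 fold change was -0.0056 for Bckdha, -0.043 for Auh and -0.0014 for Hlcs in HFD vs RD, 0.033 for Hibch in HFD-O304 vs RD, and 0.068 for Bckdha, 0.026 for Mccc2 and 0.0049 for Aldh6a1 in HFD-O304 vs HFD. In replicates 1 to 4 it was -0.032 for Bcat2 in HFD vs RD, and -0.045 for Bckdha and 0.0597 for Hibch in HFD-O304 vs RD. In replicates 5 to 7 it was -0.047 for Auh and 0.22 for Klf15 in HFD vs RD, and -0.0041 for Dbt in HFD-O304 vs HFD, and without the 3 libraries that stood apart it was -0.00054 for Auh in HFD vs RD. With single samples left out, Bckdha ranged from -0.033 to 0.046 in HFD-O304 vs RD and from -0.082 to 0.0034 in HFD-O304 vs HFD, Hibch from -0.041 to 0.018 in HFD-O304 vs RD, and Auh from -0.013 to 0.037 in HFD vs RD.

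The replicate numbers paired the samples at most in part. Deviations of same-numbered samples from their group means correlated at 0.202, 0.293 and 0.139 on average in the 3 comparisons. The lowest values were -0.53, -0.14 and -0.35, and 3, 2 and 2 of 7 samples correlated best with their own number. Most samples correlated more with their own number than, on average, with the other numbers. The exceptions were replicate 1 in HFD vs RD, 3 in HFD-O304 vs RD, and 1 and 2 in HFD-O304 vs HFD. What same-numbered samples share was not tested. With a replicate block the counts of calls among the 10 genes were 2, 2 and 4, as without it, with Bckdk in place of Mccc2 in HFD-O304 vs RD. As paired ratios with the replicate block, the log2 differences stayed at 0.46 for Bckdk to Ppm1k in HFD vs RD, at -0.61 for Bckdk to Ppm1k, -0.35 for Bckdk to Bckdha, -1.22 for Bcat1 to Bcat2 and 0.19 for Mccc1 to Mccc2 in HFD-O304 vs HFD, and at -0.24 for Bckdk to Bckdha in HFD-O304 vs RD, and no adjusted p was under 0.05, where the smallest exact p that 7 pairs allow is 0.0156 before adjustment. In replicates 1 to 4 these were 0.43, -0.70, -0.39, -1.67, 0.22 and -0.27, with a smallest possible exact p of 0.0286, which 15 tests carry past 0.05 unless most of them reach it. In replicates 5 to 7, where no ratio could pass, Bcat1 to Bcat2 in HFD-O304 vs RD was 0.16.

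Bckdha to Bckdhb in HFD vs RD was 0.013 with unstranded counts. With single samples left out, the difference ranged from -0.094 to 0.11 for Bckdha to Bckdhb, 0.47 to 0.86 for Bcat1 to Bcat2 and -0.056 to 0.024 for Mccc1 to Mccc2 in HFD vs RD, and from 0.20 to 0.31 for Bckdha to Bckdhb and 0.14 to 0.21 for Mccc1 to Mccc2 in HFD-O304 vs RD.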
